A study of Mus musculus with 24 samples.

Results

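The sarcomere proteins of the thin filament, the thick filament, the M-band and the Z-disc other than the myosin heavy chains were followed in adductor and gastrocnemius muscle of control and diabetic mice. Their genes were taken by symbol from the deposited expression table, and where a symbol had several transcripts the most abundant on average represented it. All 41 genes were found, of 24016 symbols in the table. They were sorted by the muscle fibre type in which each isoform is best known into 9 slow, 13 fast and 3 developmental genes and 16 genes shared between fibre types. Every one of the 41 passed the filter on low values, and 40 were at 1 RPKM or more in all 24 libraries (RPKM is reads per kilobase of transcript per 1 M reads of the library, so levels can be compared between genes per length).

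The 24 samples formed 4 groups of 6: adductor of control mice, adductor of diabetic mice, gastrocnemius of control mice and gastrocnemius of diabetic mice. All mice had a C57BL/6 background, and in all of them the femoral artery of 1 hindlimb had been ligated 7 days earlier, the control mice included. The labels call the adductor normoxic and the gastrocnemius ischemic, so muscle identity and ischemia cannot be told apart, and they hold no gastrocnemius from an unligated limb. They name the diabetes as type 2 without saying how it arose. Sex and age are not in the labels used here. No animal numbers are given, so the spread behind every p-value is that between these samples and may be technical in part. In whole muscle, fewer fibres of a type and less RNA per fibre cannot be told apart.

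A sarcomere shortens when myosin heads of the thick filament pull on actin of the thin filament. Calcium releases this reaction by binding troponin C, which acts through troponin I and troponin T to move tropomyosin off the myosin sites. Slow and fast fibres build the troponin complex, tropomyosin, myosin light chains and Z-disc adaptors from different genes, and embryonic or regenerating muscle uses a further set that includes cardiac troponin T, the atrial light chain and cardiac actin. Titin spans from Z-disc to M-band as a spring and nebulin lies along the thin filament.

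Library totals ran from 7.13 to 15.6 M reads, and a floor of 3 reads on a transcript of 1 kb corresponded to 0.192 to 0.421 RPKM (counting error only). Gapdh split the libraries into 2 sets with no counterpart in the labels. The first was control 1 to 3 with diabetic 1 to 4, adductor and gastrocnemius alike (14 libraries, Gapdh 677 to 1757 RPKM), and the second was the other 10 (Gapdh 0.365 to 13.7 RPKM). In the second set, 21 of the 41 genes were higher in all 4 groups and 4 were lower in all 4, so for a number of genes the values within each set are given. The share of all genes tested that shifted in this way was not computed, so these counts do not mark out the 41 genes. Control gastrocnemius 3 and diabetic gastrocnemius 2 stood apart from the other gastrocnemius libraries of the first set and mouse group (2 and 3 libraries). All 13 fast genes were higher there than in every one of these, and all 3 developmental genes were lower. The rise was not limited to fast genes: of all 41, 33 were higher and 6 lower in control gastrocnemius 3. In diabetic gastrocnemius 2, 29 were higher and 9 lower. Shares over all genes tested were not computed for this either. The skeletal fibre markers (Ckm, Des, Mb, Pygm, Ryr1, Casq1 and Cacna1s, summed) were at 3092 to 27499 RPKM in the 24 libraries. The heart markers Myh6, Mybpc3, Tnni3, Myl7 and Nppa summed to at most 2.71 RPKM, with Myl7 at 0 in all libraries of 2 groups.

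**Figure D1:**
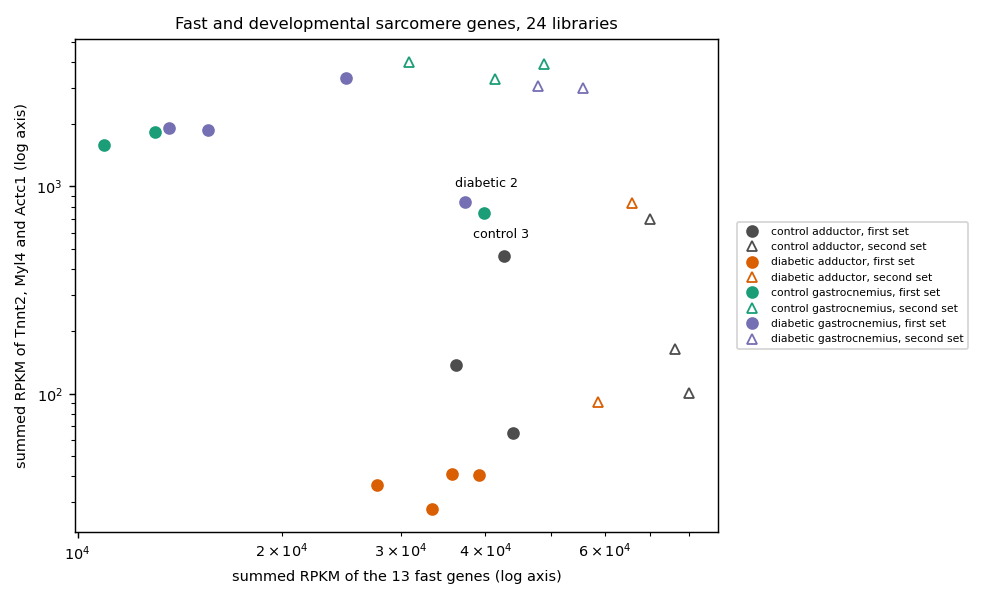
Each point is 1 of 24 libraries, with the summed RPKM of the 13 fast genes on the x axis and of Tnnt2, Myl4 and Actc1 on the y axis (both log axes); color marks the group and filled circles or open triangles the library set. Control gastrocnemius 3 (developmental sum 745) and diabetic gastrocnemius 2 (846) lie below all other gastrocnemius libraries (1586 to 3992).

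In control mice, gastrocnemius differed from adductor in 32 of the 41 genes. By limma, with adjustment over all 12382 genes tested and a threshold of 0.05, 13 genes rose in the gastrocnemius and 19 fell, while over all genes tested 54.4% were called higher and 8.7% lower. The median difference on the log2(RPKM + 0.5) scale was -0.81 over the 41 genes and 0.66 over all genes tested. With median-of-ratios scaling, which brings the median of all genes to -0.02, 8 of the 41 were called higher and 25 lower, beside 28.4% and 26.5% of all genes. By class, 6 slow genes rose and 2 fell, 10 of 13 fast genes fell and none rose, all 3 developmental genes rose, and 4 shared genes rose while 7 fell. Without the 2 libraries that stood apart, 12 of the 41 were called higher and 20 lower. The groups did not overlap for 15 genes, 9 higher and 6 lower in gastrocnemius, where 33.3% and 3.0% of all genes tested were separated in those directions. The 41 genes took 11.2 to 14.6% of the reads of a control adductor library and 3.35 to 11.4% of a control gastrocnemius library.

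**Figure D2:**
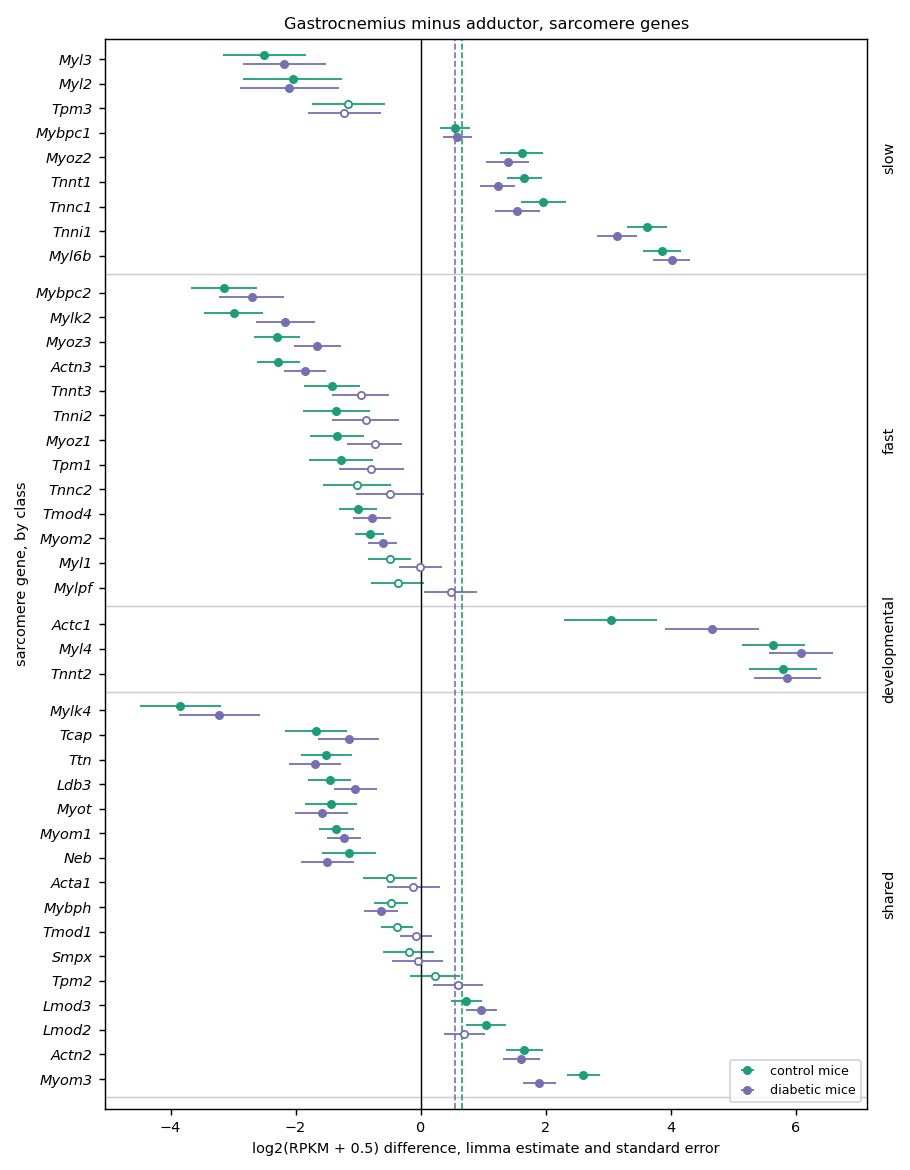
Gastrocnemius minus adductor difference of each of the 41 genes on the log2(RPKM + 0.5) scale (x axis) by class (y axis), with the limma estimate and standard error in control and diabetic mice; filled points passed the adjusted threshold and dashed lines mark the median of all genes tested (0.66 and 0.55). Fast genes lie left of 0 in control mice, and Tnnt2, Myl4, Myl6b, Tnni1 and Actc1 lie above 3 in both mouse groups.

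The largest rise among the slow genes was in Myl6b, which encodes an essential myosin light chain used by slow and non-muscle myosins. It was at 4.98, 8.07 and 13.9 RPKM (lowest, median and highest of 6) in control adductor and at 91.5, 119 and 212 RPKM in control gastrocnemius. Every gastrocnemius library was above every adductor library. The limma difference was 3.86 ± 0.30 (log2 ± SE, adjusted p = 3.2e-09).

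Slow troponin followed the same direction in all 3 subunits. Slow troponin I, Tnni1, the inhibitory subunit, ran from 26.5 through a median of 39.9 to 70.0 RPKM in control adductor and from 278 through 520.0 to 819 RPKM in control gastrocnemius. No library overlapped, and the difference was 3.62 ± 0.32 (limma adjusted p = 1.0e-08), at 2.92 within the first library set and 4.31 within the second. Slow troponin T, Tnnt1, which ties the complex to tropomyosin, had a lowest, median and highest value of 48.8, 80.1 and 120.0 RPKM in control adductor against 186, 241 and 343 RPKM in control gastrocnemius. It rose by 1.66 ± 0.27 without overlap (limma adjusted p = 1.6e-05), and by 0.86 with median-of-ratios scaling. Within the first and the second library set Tnnt1 was at 1.20 and 2.12. Troponin C of slow and cardiac muscle, Tnnc1, the calcium sensor, rose by 1.97 ± 0.36 (limma adjusted p = 5.7e-05). The slow calsarcin Myoz2, a Z-disc adaptor that binds calcineurin, rose by 1.62 ± 0.34, a call that median-of-ratios scaling ended (0.83, adjusted p = 0.098). Slow myosin-binding protein C, Mybpc1, rose by 0.55 ± 0.24 (adjusted p = 0.046). That call was lost under median-of-ratios scaling, where the difference was -0.25, with the term for the library set (0.37, adjusted p = 0.22), and on leaving out any of 11 single libraries (adjusted p 0.05 to 0.13).

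The light chains that pair with slow myosin in adult fibres went the other way. Myl2, the regulatory light chain of slow and ventricular muscle, was at 22.1, 55.8 and 121 RPKM (lowest, median and highest) in control adductor and at 3.03, 7.44 and 79.1 RPKM in control gastrocnemius. The groups overlapped through control gastrocnemius 3 and 6, and the difference was -2.05 ± 0.79 (limma adjusted p = 0.027). It was -2.57 without the 2 libraries that stood apart, and the call was lost on leaving out control adductor 3 or any of control gastrocnemius 1, 2, 4 and 5 (adjusted p 0.053 to 0.078). Myl3, the essential light chain of the same fibres, ran from 30.1 through 53.4 to 94.2 RPKM in adductor and from 3.39 through 5.86 to 49.0 RPKM in gastrocnemius, a difference of -2.50 ± 0.66 (limma adjusted p = 0.0021). Myh7, the slow myosin heavy chain that these light chains serve, also fell (-2.44 ± 0.83, limma adjusted p = 0.014). Tpm3, slow tropomyosin, had 14.2, 45.4 and 100.3 RPKM in control adductor and 3.82, 28.2 and 55.0 RPKM in control gastrocnemius, overlapping widely, with a difference of -1.16 ± 0.58 (limma adjusted p = 0.087). Limma called it lower with the replicate block (adjusted p = 0.0016) and under median-of-ratios scaling (-1.94, adjusted p = 0.0058). The same held without the 2 libraries that stood apart (-1.48, limma adjusted p = 0.031), of which control gastrocnemius 3 held the highest Tpm3 value of its group. The mean of Tpm3 over all 6 transcripts, which include non-muscle forms, gave 1.16 (limma adjusted p = 0.036). Of the 31-base words of Tpm3, 27.0% also occur in other genes, among them Tpm3-rs7.

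Among the fast genes, the falls were largest outside the troponin complex. Mybpc2, fast myosin-binding protein C, fell by 3.15 ± 0.52 (limma adjusted p = 1.8e-05), from 945, 1251 and 1419.7 RPKM (lowest, median and highest) to 64.2, 99.2 and 765 RPKM. The highest gastrocnemius value was that of control 3. Mylk2, the calcium-dependent kinase of the fast regulatory light chain, went from 150.1, 200.4 and 276 RPKM to 10.6, 22.8 and 107 RPKM. It fell by 2.99 ± 0.47 (limma adjusted p = 8.2e-06) with no overlap. Myoz3, a calsarcin of fast fibres, went from 59.9, 86.6 and 101 RPKM to 7.07, 16.9 and 40.6 RPKM, a difference of -2.30 ± 0.37 (limma adjusted p = 1.2e-05). Actn3, the alpha-actinin of fast Z-discs, went from 2296, 2661 and 3411 RPKM to 355, 485 and 1563 RPKM, also without overlap (-2.28 ± 0.34, limma adjusted p = 5.0e-06). Without control gastrocnemius 3 and diabetic gastrocnemius 2 the differences of these 4 genes were -3.65, -3.41, -2.56 and -2.57. Control gastrocnemius 3 was the highest of its group for all 4, so leaving it out had to enlarge these falls.

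The abundant fast thin filament genes changed less. Tnnt3, fast troponin T, fell by 1.42 ± 0.45 (limma adjusted p = 0.0088) and did not overlap between the groups, with 7751 to 16529 RPKM in control adductor and 1619.9 to 7001 RPKM in control gastrocnemius. Tnni2, fast troponin I, and Tpm1, the alpha-tropomyosin of fast fibres, were at -1.35 ± 0.53 and -1.27 ± 0.52 and both fell (limma adjusted p = 0.031 and 0.035). Both calls were lost on leaving out any of control adductor 4, 5 and 6 or control gastrocnemius 1 and 2, with an adjusted p of 0.062 to 0.095 for Tnni2 and of 0.071 to 0.1 for Tpm1. With a term for the library set, limma gave Tnni2 -1.58 (adjusted p = 0.0014) and Tpm1 -1.44 (adjusted p = 0.0024). Tnnc2, fast troponin C, was at -1.01 ± 0.55 (adjusted p = 0.11); it was called lower with the replicate block (adjusted p = 0.0069) and with median-of-ratios scaling (-1.81, adjusted p = 0.017). For Tnnc2, 59.0% of 31-base words also occur in transcripts of Ube2c. The fast light chains Myl1 and Mylpf were at -0.50 ± 0.34 and -0.36 ± 0.42 and were not called, though median-of-ratios scaling called Myl1 lower (-1.30, adjusted p = 0.0063). Myoz1 (-1.33 ± 0.44), the thin filament cap Tmod4 (-1.0 ± 0.31) and the M-band gene Myom2 (-0.81 ± 0.23) fell.

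All 3 developmental genes rose, and their levels within the gastrocnemius group varied by library. Tnnt2, cardiac troponin T, which embryonic skeletal muscle also makes, was at 0.679, 2.45 and 18.0 RPKM (lowest, median and highest) in control adductor and at 52.9, 223 and 292 RPKM in control gastrocnemius. Both the highest adductor library, control 2, and the lowest gastrocnemius library, control 3, stood apart from the rest of their groups, and the groups still did not overlap (5.80 ± 0.54, limma adjusted p = 1.9e-08). Myl4, the atrial and embryonic essential light chain, went from 4.10, 8.49 and 66.3 RPKM to 179, 628 and 893 RPKM. Here too the groups were separate (5.64 ± 0.51, limma adjusted p = 1.2e-08). The differences within the first and the second library set were 5.13 and 6.47 for Tnnt2 and 4.73 and 6.55 for Myl4. The regeneration markers, a list of 9 genes that holds Myog, Myod1, Myh3 and Myh8, all rose as well: their summed level was 22.6 to 141 RPKM in control adductor, highest in control 2, and 614 to 1338 RPKM in control gastrocnemius, lowest in control 3. The heart markers stayed at 0.298 to 0.719 RPKM summed in control adductor and 0.586 to 1.62 RPKM in control gastrocnemius.

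Cardiac actin, Actc1, the actin of embryonic and heart muscle, was at 53.9, 143 and 686 RPKM (lowest, median and highest) in control adductor and at 512, 1642 and 2994 RPKM in control gastrocnemius. It rose by 3.04 ± 0.75 (limma adjusted p = 0.0012), and the groups overlapped because control adductor 6 exceeded control gastrocnemius 3. Within the sets Actc1 was at 2.44 and 3.64. Skeletal actin, Acta1, the adult form and the highest of the 41 genes by median in every group, had 13815, 21719 and 28274 RPKM in control adductor and 6622, 18021 and 26293 RPKM in control gastrocnemius. The ranges overlapped widely, with a difference of -0.49 ± 0.43 (limma adjusted p = 0.33). Median-of-ratios scaling gave -1.29 (adjusted p = 0.03).

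**Figure D3:**
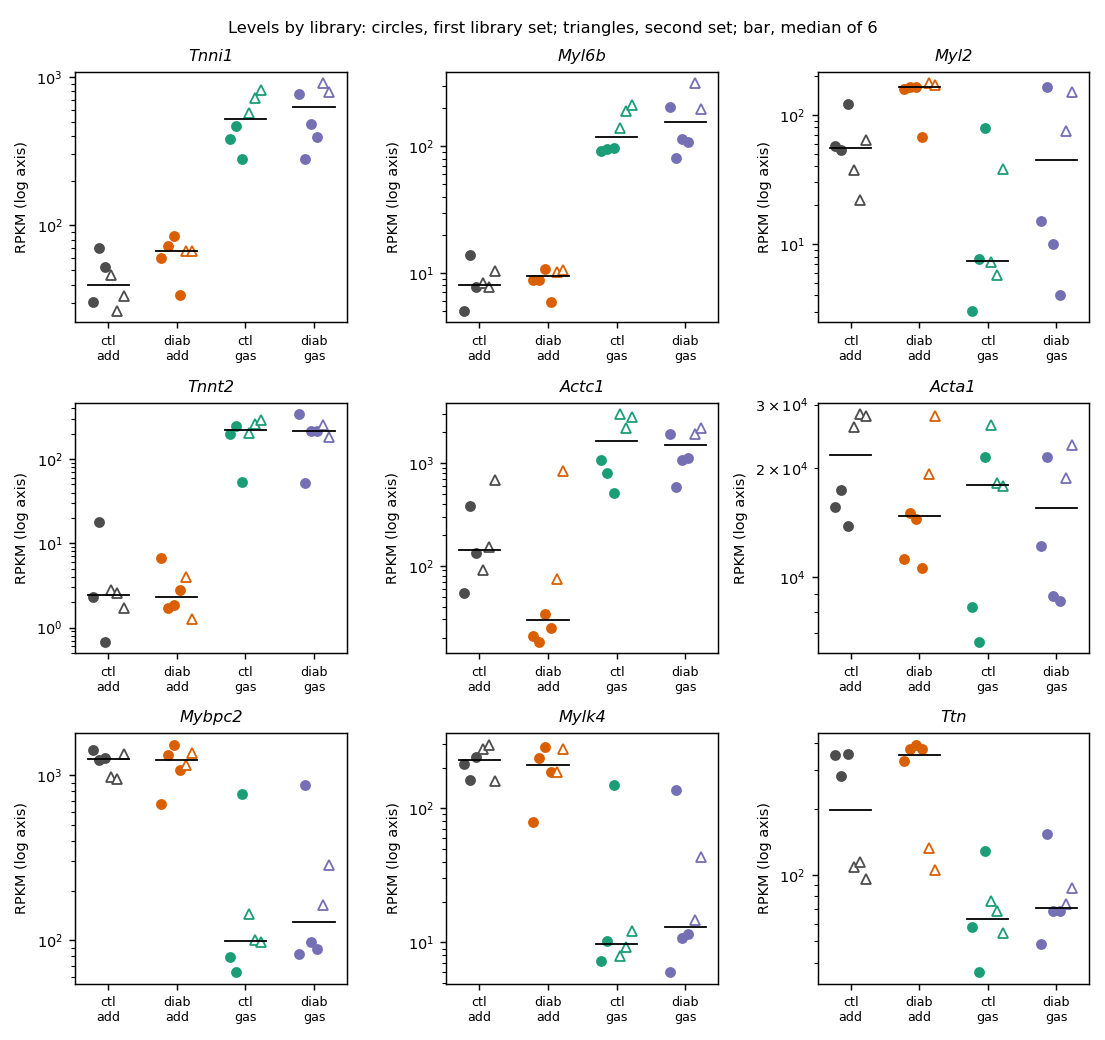
RPKM of 9 genes in each library (log y axes; ctl, control; diab, diabetic; add, adductor; gas, gastrocnemius), with filled circles for the first library set, open triangles for the second and a bar at the median of 6. Tnni1, Myl6b and Tnnt2 are separate between muscles, Mylk4 approaches or overlaps adductor levels through control gastrocnemius 3 and diabetic gastrocnemius 2, Myl2 overlaps also through control gastrocnemius 6 and diabetic gastrocnemius 5 and 6, and Ttn in adductor lies at 283 to 393 in the first set and 96.1 to 133 in the second.

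The bases before the transcription start of 8 of these genes are given here. Of the genes with a RefSeq window, 7 had the largest differences between muscles in control mice, and Acta1 is the near-identical partner of Actc1 that was not called. Sequences are those of RefSeq on build GRCm38.p6 (the expression table uses mm9), 250 bases 5′ to 3′ ending just before the start. RefSeq windows were matched for 30 of the 41 genes. Capitals mark matches to 5 motifs searched on both strands, and they run together where matches overlap. The E-box was searched as CANNTG. The MCAT element was searched as CATTCC. The box bound by the TATA-binding protein was searched as TATAAA. CArG boxes and MEF2 sites were the remaining motifs. Tnni1 lies at chr1:135799171-135799420 (plus strand), Myl6b at chr10:128498686-128498935 (minus strand), Tnnt2 at chr1:135836084-135836333 (plus strand), Myl4 at chr11:104550413-104550662 (plus strand), Actc1 at chr2:114052876-114053125 (minus strand), Acta1 at chr8:123894776-123895025 (minus strand), Mybpc2 at chr7:44524670-44524919 (minus strand) and Mylk4 at chr13:32783965-32784214 (minus strand).
Tnni1: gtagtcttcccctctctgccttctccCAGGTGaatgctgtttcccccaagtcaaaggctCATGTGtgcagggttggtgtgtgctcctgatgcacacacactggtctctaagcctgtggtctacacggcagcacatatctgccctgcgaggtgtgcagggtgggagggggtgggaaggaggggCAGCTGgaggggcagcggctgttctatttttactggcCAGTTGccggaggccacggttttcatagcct
Myl6b: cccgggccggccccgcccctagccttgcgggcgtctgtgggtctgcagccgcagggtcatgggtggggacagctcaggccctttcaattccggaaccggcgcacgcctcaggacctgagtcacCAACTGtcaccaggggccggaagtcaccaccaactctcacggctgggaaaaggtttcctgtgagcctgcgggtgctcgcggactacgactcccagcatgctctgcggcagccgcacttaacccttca
Tnnt2: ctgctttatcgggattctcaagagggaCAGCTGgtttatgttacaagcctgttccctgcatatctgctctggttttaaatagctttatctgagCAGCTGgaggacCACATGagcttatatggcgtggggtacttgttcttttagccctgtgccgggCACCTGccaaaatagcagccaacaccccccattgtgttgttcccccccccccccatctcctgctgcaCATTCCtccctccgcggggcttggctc
Myl4: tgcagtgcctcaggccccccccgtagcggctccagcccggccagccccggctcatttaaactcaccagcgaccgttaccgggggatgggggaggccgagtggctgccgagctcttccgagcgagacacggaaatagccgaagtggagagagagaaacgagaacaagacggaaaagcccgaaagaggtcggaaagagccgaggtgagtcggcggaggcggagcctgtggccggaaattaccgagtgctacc
Actc1: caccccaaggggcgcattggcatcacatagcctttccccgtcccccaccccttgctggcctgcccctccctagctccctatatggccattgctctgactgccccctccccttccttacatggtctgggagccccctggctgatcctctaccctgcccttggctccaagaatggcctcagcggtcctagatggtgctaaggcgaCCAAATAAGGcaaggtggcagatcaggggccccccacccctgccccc
Acta1: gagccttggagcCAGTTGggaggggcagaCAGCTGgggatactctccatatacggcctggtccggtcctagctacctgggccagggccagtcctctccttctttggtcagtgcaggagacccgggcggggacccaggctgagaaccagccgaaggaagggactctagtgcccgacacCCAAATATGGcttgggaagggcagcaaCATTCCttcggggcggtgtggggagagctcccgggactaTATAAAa
Mybpc2: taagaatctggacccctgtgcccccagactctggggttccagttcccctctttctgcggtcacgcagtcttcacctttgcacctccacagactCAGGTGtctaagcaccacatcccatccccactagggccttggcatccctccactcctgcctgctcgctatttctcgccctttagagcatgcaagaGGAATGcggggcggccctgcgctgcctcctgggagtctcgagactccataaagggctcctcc
Mylk4: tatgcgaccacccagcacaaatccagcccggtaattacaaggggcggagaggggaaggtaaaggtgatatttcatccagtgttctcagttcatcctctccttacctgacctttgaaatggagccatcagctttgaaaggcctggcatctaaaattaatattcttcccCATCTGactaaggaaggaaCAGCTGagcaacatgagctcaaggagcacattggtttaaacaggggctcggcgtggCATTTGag

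The 2 actin promoters shared a CArG box, the motif bound by serum response factor; Actc1 had 1 and no other motif searched, while Acta1 had 1 together with 2 E-boxes, 1 MCAT element and 1 TATAAA. Tnni1 and Tnnt2 each held 4 E-boxes, the motif of the MyoD family, and Tnnt2 also held 1 MCAT element, the motif of TEAD factors. RefSeq gives Tnnt2 and Tnni1 a further start each; the window of the other Tnnt2 start held an E-box and no MCAT element, and that of the other Tnni1 start an E-box. The Myl4 window held none of the 5 motifs. Over the 35 windows of the 30 matched genes, E-boxes were in 82.9% (66.2% of all 32851 windows of this length), MCAT elements in 25.7% (12.6%), TATAAA in 14.3% (12.4%), CArG boxes in 17.1% (1.47%) and MEF2 sites in 5.71% (0.508%). A match is a run of letters and not a shown binding site.

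Of the 16 shared genes, 7 fell and 4 rose in control mice. Mylk4, a kinase of the myosin light chain kinase family, fell furthest of the 41, from 159, 228 and 299 RPKM (lowest, median and highest) in control adductor to 7.28, 9.75 and 149 RPKM in control gastrocnemius. Control gastrocnemius 3 alone stood near the adductor values, the groups did not overlap, and the difference was -3.84 ± 0.65 (limma adjusted p = 2.3e-05), or -4.50 without the 2 libraries that stood apart. Some Z-disc genes fell as well: Tcap, which caps titin, was at -1.67 ± 0.49, Ldb3, a PDZ-LIM scaffold of alpha-actinin, at -1.45 ± 0.34, and Myot, an actin-bundling Z-disc protein, at -1.43 ± 0.42. Myom1, the main cross-linker of the M-band, fell by 1.35 ± 0.28. These falls had limma adjusted p of 0.0048, 7.9e-04, 0.005 and 2.0e-04.

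Titin and nebulin fell by amounts that depended on the library set. Ttn was at 96.1, 198 and 357 RPKM (lowest, median and highest) in control adductor and at 36.1, 63.3 and 129 RPKM in control gastrocnemius, a difference of -1.51 ± 0.41 (limma adjusted p = 0.0027). It was -2.33 within the first set and -0.69 within the second. The difference between sets, second minus first, was -1.62 for Ttn in control adductor and 0.02 in control gastrocnemius. Neb was at 129.7, 233 and 461 RPKM in control adductor and at 64.4, 93.1 and 267 RPKM in control gastrocnemius (-1.15 ± 0.43, limma adjusted p = 0.023), with -1.55 and -0.74 within the sets. Its call was lost on leaving out control adductor 1 or 3 or control gastrocnemius 2 or 6 (adjusted p 0.052 to 0.064).

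Against these falls, 4 shared genes rose. Myom3, an M-band protein of slow and intermediate fibres, was at 2.28, 4.28 and 8.06 RPKM (lowest, median and highest) in control adductor and at 18.2, 28.1 and 42.2 RPKM in control gastrocnemius, without overlap (2.60 ± 0.26, limma adjusted p = 3.3e-08). Actn2, the alpha-actinin of all fibre types, rose where its fast partner Actn3 fell, from 121, 161 and 186 RPKM to 265, 547 and 877 RPKM (1.66 ± 0.30, limma adjusted p = 4.2e-05). Median-of-ratios scaling gave Actn2 0.86 with an adjusted p of 0.055. The leiomodins Lmod2 and Lmod3, which lengthen thin filaments at the pointed end, rose by 1.05 ± 0.33 and 0.73 ± 0.25, calls that ended with that scaling (0.25 and -0.06). Tmod1, Tpm2, Smpx and Mybph were between -0.47 and 0.23 and were not called. Tmod1 was called lower with the replicate block (adjusted p = 0.023), and median-of-ratios scaling called Tmod1 (-1.17, adjusted p = 0.0027) and Mybph (-1.27, adjusted p = 1.1e-04) lower. Of 31-base words, 46.3% of those of Mybph and 31.9% of those of Tmod1 also occur in other genes.

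The slow isoform was also taken as a share of the slow plus fast RPKM within 8 isoform pairs, a value that needs no common scale between libraries. Tnni1 was a median 0.472% of Tnni1 plus Tnni2 in control adductor (0.214 to 1.37%) and 14.3% in control gastrocnemius (5.98 to 32.7%). Tnnt1 of Tnnt1 plus Tnnt3 was at 0.637% and 5.91%, and Tnnc1 of Tnnc1 plus Tnnc2 at 0.640% and 5.38%. Fast troponin thus made up most of each pair in every library. The Z-disc pair Myoz2 and Myoz1 was at 2.41% and 16.0%, and Mybpc1 went from 17.6% (15.5 to 20.4%) to 78.1% (45.1 to 79.1%) of the 2 binding proteins. In the light chain pairs the medians were lower in gastrocnemius: 0.935% and 0.227% for Myl3 with Myl1, and 0.774% and 0.199% for Myl2 with Mylpf. The tropomyosin share, Tpm3 with Tpm1, was at 0.575% and 0.644%, with libraries from 0.0533 to 3.68% in gastrocnemius. The slow troponin shares were higher in the first library set, where Tnni1 reached a median of 1.20% in control adductor and 25.3% in control gastrocnemius.

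**Figure D4:**
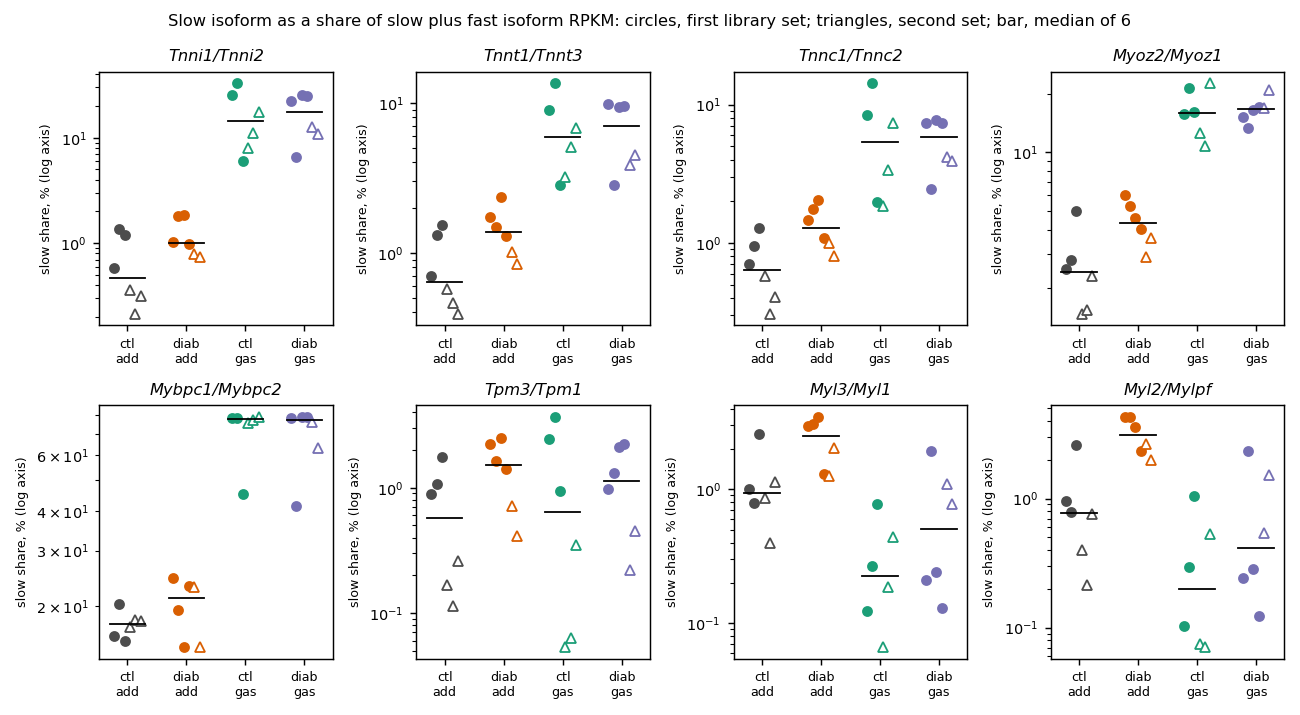
Slow isoform as a percentage of slow plus fast isoform RPKM (log y axes) in 8 pairs, 1 point per library, with circles for the first set, triangles for the second and bars at the median of 6. In the troponin, calsarcin and binding protein C pairs every gastrocnemius library lies above every adductor library of the same mouse group, while in the Myl3 and Myl2 pairs the gastrocnemius medians lie below the adductor medians.

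Diabetic mice showed the muscle difference in 28 of the 41 genes by limma: 12 rose in gastrocnemius and 16 fell, beside 48.1% and 8.83% of all genes tested. The median was -0.61 over the 41 genes and 0.55 over all genes. With median-of-ratios scaling 7 were higher and 22 lower (27.4% and 26.2% of all genes). Separation without overlap was found for 8 genes, all higher in gastrocnemius (29.0% of all genes), and for none in the lower direction (2.33%). By class, 6 slow genes rose and 2 fell, 6 of 13 fast genes fell, the 3 developmental genes rose, and 3 shared genes rose while 8 fell. Without the 2 libraries that stood apart, 11 were called higher and 16 lower.

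In these mice Tnni1 rose from 34.0, 67.5 and 84.7 RPKM (lowest, median and highest) in adductor to 279.7, 625 and 903 RPKM in gastrocnemius (3.14 ± 0.32, limma adjusted p = 5.0e-08). Myl6b rose from 5.84, 9.45 and 10.8 RPKM to 80.5, 156 and 316 RPKM. Neither gene overlapped between the muscles. Tnnt1 went from 83.9, 111 and 199.9 RPKM to 186, 281 and 434 RPKM, where the muscles overlapped (1.23 ± 0.27, limma adjusted p = 5.4e-04). Median-of-ratios scaling ended the call of Tnnt1 (0.55, adjusted p = 0.16), and under it 2 slow genes, Myl6b and Tnni1, were called higher. The slow light chains fell, Myl2 from 67.1, 165 and 176 RPKM to 4.04, 44.8 and 166 RPKM (-2.10 ± 0.79, limma adjusted p = 0.026) and Myl3 from 36.6, 91.3 and 133 RPKM to 3.39, 19.2 and 116 RPKM (-2.18 ± 0.66, limma adjusted p = 0.0069). Diabetic gastrocnemius 2 held the highest gastrocnemius value of both, and the differences within the first and the second library set were -2.81 and -0.70 for Myl2 and -2.59 and -1.36 for Myl3. Among the developmental genes, Tnnt2 went from 1.26, 2.32 and 6.68 RPKM to 51.6, 215 and 343 RPKM and Myl4 from 4.55, 8.30 and 13.5 RPKM to 206, 643 and 1069.5 RPKM. Neither of these 2 genes overlapped between the muscles, and diabetic gastrocnemius 2 was the lowest gastrocnemius library for both. Actc1 went from 18.3, 29.5 and 825 RPKM to 588, 1508 and 2179 RPKM (4.66 ± 0.75, limma adjusted p = 1.5e-05), with diabetic adductor 6 inside the gastrocnemius range, and it was at 5.47 and 3.03 within the first and the second library set.

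Several of the genes that fell in control mice also fell here. Mylk2 (-2.16 ± 0.47), Myoz3 (-1.65 ± 0.37) and Actn3 (-1.85 ± 0.34) fell (limma adjusted p = 4.0e-04, 5.8e-04 and 7.5e-05). Their adductor and gastrocnemius ranges overlapped: Mylk2 82.7 to 247 and 17.2 to 120.2 RPKM, Myoz3 33.1 to 117 and 11.2 to 43.8 RPKM, Actn3 1962 to 3867 and 485 to 2025 RPKM. Mylk4 went from 78.7, 212 and 288 RPKM (lowest, median and highest) to 5.98, 13.1 and 136 RPKM. Ttn fell by 1.69 ± 0.41 from 106, 353 and 393 RPKM to 48.4, 71.1 and 154 RPKM, with -2.25 and -0.56 within the sets. Neb fell by 1.49 ± 0.43 from 178, 356 and 578 RPKM to 55.4, 113 and 285 RPKM. Actn2 (145, 197 and 223 RPKM, then 356, 609.7 and 986 RPKM) and Myom3 (5.53, 7.04 and 10.3 RPKM, then 17.0, 30.8 and 37.5 RPKM) rose without overlap. Acta1 went from 10618, 14748 and 27959 RPKM in adductor to 8595, 15512 and 23189 RPKM (-0.11 ± 0.43, limma adjusted p = 0.84).

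In diabetic mice Tnnt3 (-0.96 ± 0.45), Tnni2 (-0.88 ± 0.53), Myoz1 (-0.74 ± 0.44) and Tpm1 (-0.79 ± 0.52) did not pass the test in limma on the values as deposited, with neither a block nor a set term, with adjusted p of 0.073, 0.17, 0.16 and 0.2. All 4 were called lower with the replicate number as a blocking factor (adjusted p = 0.016, 0.023, 0.027 and 0.035), after median-of-ratios scaling (0.013, 0.036, 0.022 and 0.041) and when the library set was a term (0.0072, 0.015, 0.045 and 0.027). The replicate block also takes up the library set, so it and the set term are not separate checks. It brought the totals to 14 higher and 21 lower in diabetic mice and to 13 and 22 in control mice. Single libraries decided the calls of Mybpc1, Mybph, Myl2, Myom2, Tcap and Tmod4 in diabetic mice, with adjusted p from 0.05 to 0.15 on leaving out 1 of 3 to 17 libraries. Tnnt3 was called on leaving out diabetic gastrocnemius 5 (-1.22, adjusted p = 0.024).

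Other genes of the same machinery, from lists drawn up with earlier results of these data known, gave the following counts in control mice. Beside them, 54.4% of all genes tested were called higher and 8.7% lower (28.4% and 26.5% with median-of-ratios scaling). Of 28 further sarcomere and Z-disc genes tested, 4 rose and 9 fell (median -0.20), and 3 and 15 with median-of-ratios scaling. Csrp3, a muscle LIM protein, rose by 3.07 ± 0.62 and Ankrd1, a titin-binding ankyrin repeat protein, by 3.55 ± 0.69, while its relative Ankrd23 (-2.68 ± 0.52) and the sarcomere ubiquitin ligase Trim54 (-1.65 ± 0.26) fell. Among 6 myosin heavy chains, the embryonic Myh3 and perinatal Myh8 rose by 5.04 ± 0.83 and 5.46 ± 0.41, and the fast Myh4 fell by 2.19 ± 0.37. Of 7 calcium-handling and fibre type partners tested, 3 rose and 2 fell (2 and 3 with median-of-ratios scaling). The slow or developmental Casq2 (4.10 ± 0.34), Sln (4.50 ± 0.66) and Atp2a2 (1.48 ± 0.30) rose, and the fast Atp2a1 (-2.03 ± 0.37) and Pvalb (-2.54 ± 0.75) fell. Of 17 fibre type regulators, 3 rose and 4 fell, but none rose and 10 fell with median-of-ratios scaling. Sox6, a repressor of slow genes, fell by 1.71 ± 0.25. It is the only one of the 17 named here, values of those that rose are not given, and its part in the slow genes was not tested. Of 8 assembly chaperones 2 rose and 1, the myosin methyltransferase Smyd1, fell (-1.19 ± 0.29). With median-of-ratios scaling 0 chaperones rose and 2 fell.

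Marker genes of other cells also differed between the muscles. Of 10 non-muscle, smooth muscle and heart paralogs of these genes tested, 7 rose in control mice and 1 fell (5 and 1 with median-of-ratios scaling), where 54.4% of all genes tested were called higher. Among those that rose were Tpm4 (2.66 ± 0.36), Actn1 (2.73 ± 0.35) and Acta2 (2.48 ± 0.39). The 6 smooth muscle markers, a list that also holds Acta2, were split, with 3 higher and 3 lower (2 and 3 with median-of-ratios scaling). Of 6 endothelial markers 3 rose and 0 fell, and with that scaling 0 were called in either direction. All 6 macrophage markers rose, with a summed level of 25.1 to 220.4 RPKM in control adductor and 343 to 1365 RPKM in control gastrocnemius. All 6 fibroblast markers rose too, from 193 to 892 RPKM summed to 1349.5 to 5139 RPKM. With median-of-ratios scaling 6 macrophage and 5 fibroblast markers were called higher. Of the 7 skeletal fibre markers 4 fell and 0 rose (6 and 0 with median-of-ratios scaling). The part that these cells have in the differences of the 41 genes was not tested. Control adductor 2, the adductor library with the highest Tnnt2, was also the highest of its group for the macrophage and fibroblast sums.

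Diabetic and control mice were then compared within the adductor. By limma 0 of the 41 genes passed the adjusted threshold (0.0323% of all genes tested were higher and 0.0% lower), voom on recovered reads also called 0, and 3 genes had an unadjusted p under 0.05. The share of all genes tested with such a p is not given here, so the 3 do not mark out the 41 genes. No gene was separate between the groups, where 0.194% of all genes were higher and 0.0242% lower without overlap. Of these 3 genes, Myom3 had 2.28, 4.28 and 8.06 RPKM (lowest, median and highest) in control and 5.53, 7.04 and 10.3 RPKM in diabetic adductor. The ranges overlapped and the difference was 0.75 ± 0.26 (limma adjusted p = 1). Tnnt1 was at 0.63 ± 0.27 (limma adjusted p = 1), with medians of 80.1 and 111 RPKM. Actc1 was at -1.71 ± 0.75 (limma adjusted p = 1), with medians of 143 and 29.5 RPKM but libraries of 686 and 825 RPKM in the respective groups, and it was at -2.53 within the first library set and 0.22 within the second.

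As a description without a test, all 9 slow genes had a positive difference in adductor (median 0.60) and 1 of the 13 fast genes did (median -0.43), beside a median of 0.04 over all genes tested. With the term for the library set the slow median was 0.57 and the fast median -0.25. Again 9 and 1 were positive, but Actn3, the positive fast gene without the term (0.0081), was at -0.0 with it. The slow share was higher by median in diabetic adductor in all 8 pairs: Myl2 with Mylpf was at 3.09% (1.99 to 4.28%) beside 0.774% (0.216 to 2.61%) in control, Myl3 with Myl1 at 2.51% beside 0.935%, and Tnni1 with Tnni2 at 1.01% (0.733 to 1.86%) beside 0.472%. The ranges of the 2 mouse groups overlapped in each of these pairs. These medians mix the library sets in unequal parts. In the first set, control and diabetic adductor were at 0.584 to 1.37% and 0.990 to 1.86% for Tnni1. For Myl2 they were at 0.784 to 2.61% and 2.31 to 4.28% there. The second set had 0.214 to 0.360% and 0.733 to 0.795% for Tnni1. Its Myl2 shares were 0.216 to 0.765% and 1.99 to 2.63%. Myl3 was at 0.792 to 2.59% and 1.31 to 3.48% in the first, then 0.400 to 1.13% and 1.27 to 2.04%.

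Within the gastrocnemius, limma again called 0 of the 41 genes (0.00808% of all genes higher, 0.0% lower), voom called 0, and 0 had an unadjusted p under 0.05. None was separate between the groups (0.0323% of all genes in each direction). The 3 smallest p-values belonged to slow genes. Myl2 had 3.03, 7.44 and 79.1 RPKM (lowest, median and highest) in control and 4.04, 44.8 and 166 RPKM in diabetic gastrocnemius, a difference of 1.39 ± 0.79 (limma adjusted p = 1). Myl3, with 3.39, 5.86 and 49.0 RPKM against 3.39, 19.2 and 116 RPKM, was at 1.0 ± 0.66 (limma adjusted p = 1). Tpm3, with 3.82, 28.2 and 55.0 RPKM against 20.2, 36.0 and 68.2 RPKM, was at 0.98 ± 0.58 (limma adjusted p = 1), and was at -0.23 within the first library set and 1.98 within the second. Within the first and the second library set Myl2 was at 0.51 and 3.11 and Myl3 at 0.31 and 2.18. Within the diabetic group the values of Myl2 were spread widely: libraries diabetic 2, 5 and 6 were at 74.6 to 166 RPKM for Myl2 and the other 3 at 4.04 to 15.0 RPKM. As a description without a test, positive differences were seen in 34 of the 41 genes (median 0.13, beside -0.06 over all genes). The share of all genes with a positive difference is not given here. The 41 genes come from the same libraries, so they are not separate observations of a shift.

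**Figure D5:**
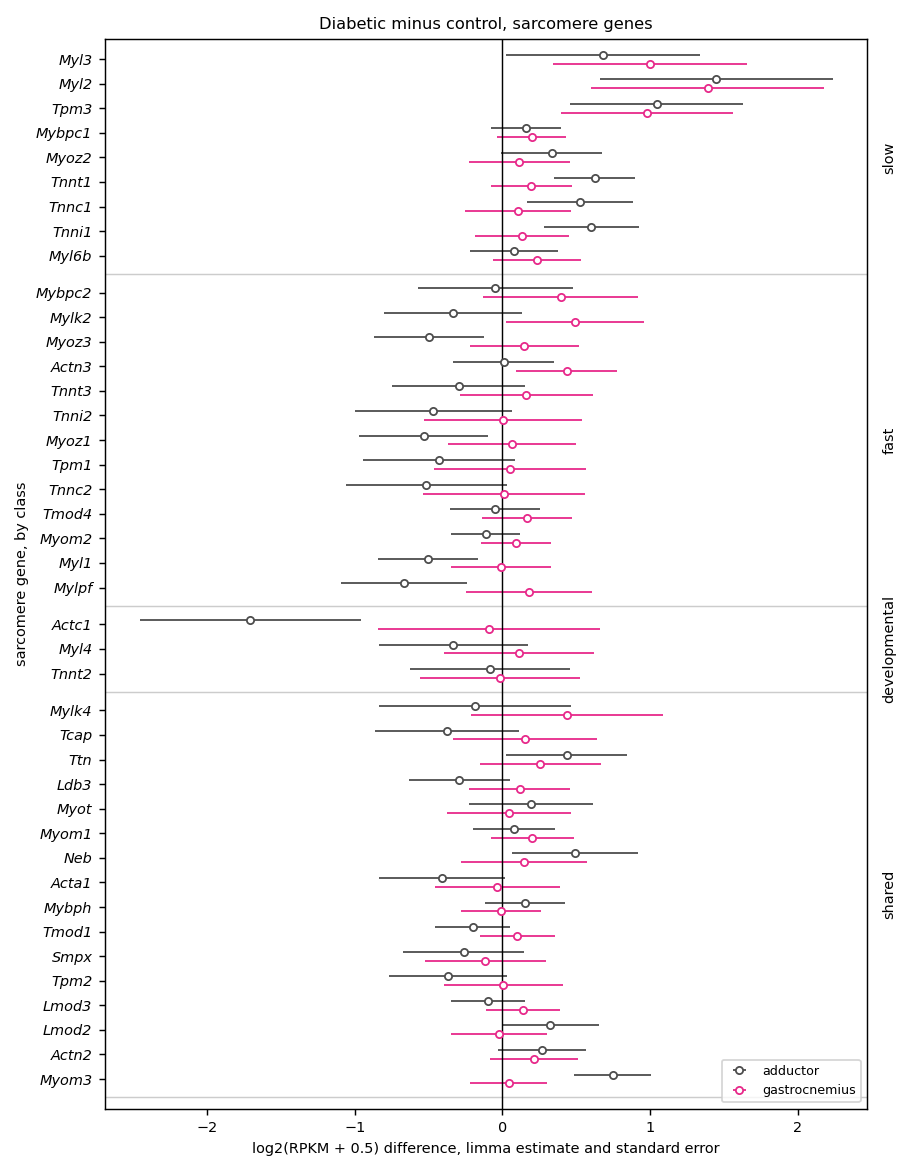
Diabetic minus control difference of each of the 41 genes on the log2(RPKM + 0.5) scale (x axis) by class (y axis), with the limma estimate and standard error in adductor and gastrocnemius; all points are open because none passed the adjusted threshold. In adductor the 9 slow genes lie right of 0 and Actc1 lies furthest left at -1.71.

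The difference between the 2 diabetes effects, gastrocnemius minus adductor, is also the difference between the muscle effects of the 2 mouse groups. Limma called 0 of the 41 genes in either direction (0.0% of all genes each), voom called 0, and 0 had an unadjusted p under 0.05. The smallest p-values were those of Myom3 (-0.70 ± 0.37, limma adjusted p = 1) and Actc1 (1.62 ± 1.06, limma adjusted p = 1). Actc1 was at 3.03 within the first library set and -0.60 within the second. All 13 fast genes had positive values (median 0.48, beside -0.11 over all genes), as a description of samples already used above.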

How the data were processed

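Poly(A) RNA from 24 muscle samples had been sequenced, and the deposited table holds RPKM values per RefSeq transcript, made by the authors. The tools are TopHat and HOMER on build mm9, per the submitters' processing notes; their versions and any strand option are not given in the sources used here. All 24 value columns were matched to samples by name, with 0 unmatched. Symbols with several transcripts were represented by the most abundant one on average over the libraries, and 12382 genes with at least 1 RPKM in at least 6 libraries were tested. Values were taken as log2(RPKM + 0.5), a scale on which changes of low genes are understated, and all 4 groups were fitted together with limma 3.58.1 in R 4.3.3, with Benjamini-Hochberg adjustment within each comparison at 0.05. The fit was tested on simulated data. Of the RPKM values above 0, 99.97% gave whole reads within 0.01 of a read, so voom on those reads was run as an alternative.

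Muscles with the same number deviated together from their group means in all 12 pairs (r 0.254 to 0.736). They were always in the same library set, so these r cannot tell a shared set from a shared mouse. With the library set also removed, r was mixed, from -0.09 to 0.627. The numbers were used to pair the muscles only in an alternative fit, the replicate block, which also takes up the library set. Same-numbered control and diabetic samples gave r from -0.659 to 0.823 and were not taken as pairs. Values by library are given for the 3 genes of each class with the smallest p in the control muscle comparison, the 3 with the smallest p in each diabetes comparison, the 2 in their difference, and Tnnt2, Actc1, Myl4, Acta1, Ttn and Neb. Other genes are named where they go against their class or to give its range. The genes, classes, lists and library sets were chosen with earlier results of these data known. Leaving out control gastrocnemius 3 and diabetic gastrocnemius 2, with and without a term for the library set, was added after seeing the data. These 2 libraries were set apart by values of the genes reported here, so larger differences without them are no separate evidence.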

Additional observations from a re-analysis of the deposited data

Results flagged for a closer look

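In each group of 6, the gap of the highest or lowest library to its nearest neighbour was divided by the range of the group for the 18 genes whose values by library are given. Of 72 groups, 16 had a share over Dixon's limit for 6 values, which about 5% of groups of independent, normally spread values pass by chance. Each group here mixes 2 library sets, and the 18 genes share the same libraries. The 16 can therefore not be set against that rate, and the limit serves only to pick values to look at. The 16 sit in few libraries. Control gastrocnemius 3 was far above its group for Actn3 (1563 RPKM), Mylk2 (107 RPKM) and Mylk4 (149 RPKM), the first a fast Z-disc protein, and far below it for the developmental genes Myl4 (179 RPKM) and Tnnt2 (52.9 RPKM). Diabetic gastrocnemius 2 showed the same pattern for Actn3 (2025 RPKM), Myl4 (206 RPKM) and Tnnt2 (51.6 RPKM). Control adductor 2 was far above its group for Myl4 (66.3 RPKM) and Tnnt2 (18.0 RPKM), and diabetic adductor 6 for Actc1 (825 RPKM). Diabetic adductor 4 was far below its group for the slow genes Myl6b (5.84 RPKM), Tnni1 (34.0 RPKM) and Myl2 (67.1 RPKM). The others were low values of Mylk4 in diabetic adductor 1 (78.7 RPKM) and of Myom3 in diabetic gastrocnemius 5 (17.0 RPKM). No cause was tested.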

How the results depend on the processing

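The total of called genes, higher and lower together, stayed within 1.5 times the reported total in all comparisons under every setting run: pseudocounts of 0.1 and 1, no filter, median-of-ratios scaling, the mean over transcripts, voom on reads, the library set as a term or alone, the replicate block and each library left out. Taken alone, the genes called higher went from 13 to 8 in control and from 12 to 7 in diabetic mice with scaling. The number called ran from 29 to 32 in control mice and from 23 to 28 in diabetic mice on leaving out 1 library, and was 0 throughout for diabetes. The replicate block, which pairs the muscles by number, called 13 genes higher and 22 lower in control mice. In diabetic mice it called 14 and 21, and for the difference of the diabetes effects it called 0. Diabetes within each muscle was instead fitted with the replicate number as a term across control and diabetic samples, and 0 genes were called. That term ties same-numbered samples that were not taken as pairs, some of them from different library sets. In control mice with scaling, Tpm2 turned to -0.57, Mybpc1 to -0.25 and Lmod3 to -0.0632, and in diabetic mice Mybpc1 to -0.0903. Tpm2 was at -0.0544 with the set term and -0.0225 in the first set. With the set term and without the 2 libraries that stood apart, Tpm2 was at -0.34, Mybpc1 at -0.0104 and Mybph at 0.0782. The mean over transcripts turned Tpm3 to 1.16 in control and 0.27 in diabetic mice. Leaving out 1 library gave Smpx -0.40 to 0.0491 in control mice, above 0 without control gastrocnemius 1 or 2, and Acta1 -0.25 to 0.0557 in diabetic mice, above 0 without diabetic adductor 6 or diabetic gastrocnemius 3 or 4. For diabetes, Actc1 turned to 0.22 in adductor and -0.60 in the difference within the second set, and Tpm3 to -0.23 in gastrocnemius within the first. The causes were not tested. Fold changes of Tnnt2, at 0.679 RPKM in 1 library, are understated by the pseudocount.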
